A study of Rattus norvegicus with 6 samples.

Results

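The matrix metalloproteinase system of the retina was examined through 10 genes that encode the TIMP inhibitors, a set of metalloproteinases and the membrane-anchored inhibitor Reck. The genes were chosen by name as a family, and each was read from the probe row annotated with its symbol alone. Of the 10 genes, 9 had such a row on the Affymetrix Rat Gene 2.0 ST array, which measures transcripts by hybridization of labelled cDNA to short probes, and they were part of 18166 genes tested in all. Mmp24, a membrane-type metalloproteinase of neurons, had no row under its own symbol and was not analysed here. Each of the 9 measured genes had exactly 1 row.

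Retinal RNA was compared between the HCDDP group (3 arrays) and the diabetic group (3 arrays). Both groups were male SD rats made diabetic with 30 mg/kg of streptozotocin, a toxin of the insulin-producing beta cells, which followed 4 weeks on a high fat diet. The HCDDP rats then received Compound Danshen Dripping Pill (CDDP), a preparation of Danshen, notoginseng and borneol, through a gastric tube at a daily dose of 0.4 g/kg over 12 weeks, whereas the diabetic rats received saline. The sample labels name Danshen as the treatment, retina as the tissue and 17 weeks as the age, while dose and duration come from the study's methods. The schedule began at 5 weeks of age and would have ended later than the labelled age. No retina of a non-diabetic rat was analysed here. The study treats the arrays as the replicates of each group, but the labels do not say whether an array held the RNA of 1 rat. The p-values therefore cover no more than the variation among these 6 RNA preparations, part of which can be technical.

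Metalloproteinases cleave the proteins of the extracellular matrix, and TIMPs block them by occupying the catalytic site. Most metalloproteinases are secreted as inactive precursors, and Mmp14 together with Timp2 activates the Mmp2 precursor at the cell surface. In the retina the system acts on the basement membranes of vessels and on the tight junctions of the blood-retinal barrier, and Timp3 is held in the matrix beneath the pigment epithelium.

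Timp1 was the 1 member that rose in the HCDDP group, and its fellow inhibitor Timp4 lay lower there without reaching the fold change. For this reason the sequence just upstream of the start that the RefSeq promoter table gives for each of these genes is shown, on the strand of the gene and ending at the last base before that start, for build GRCr8 (Timp1 at chrX:3771123-3771282, minus strand, and Timp4 at chr4:149985205-149985364, minus strand). RefSeq's annotated extent of both genes begins further upstream, by 1456 bases for Timp1, whose window lies inside the gene, and by 146 bases for Timp4, whose window lies mostly inside. Capitals mark the letters TGAGTAA, a variant of the site bound by the Fos and Jun proteins of AP-1 that is known from the Timp1 promoter in mouse and human.
Timp1: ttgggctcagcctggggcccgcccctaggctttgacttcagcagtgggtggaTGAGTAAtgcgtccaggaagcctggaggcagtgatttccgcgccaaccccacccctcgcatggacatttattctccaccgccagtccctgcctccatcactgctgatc
Timp4: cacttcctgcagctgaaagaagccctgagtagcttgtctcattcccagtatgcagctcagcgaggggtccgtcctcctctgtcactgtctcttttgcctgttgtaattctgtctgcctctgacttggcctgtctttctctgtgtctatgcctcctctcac
RefSeq windows of 250 bases before to 50 bases after the table's start were matched for 7 of the 10 genes. The letters TGAGTAA were searched on both strands and were in 2.90% of all 33469 windows. Among the 7 they were present in the Timp1 window alone, beginning 108 bases before the start. These letters were already known from the Timp1 promoter in other species, so their presence there is not independent evidence. The usual AP-1 letters TGAGTCA, searched in the same way, were in none of the 7 windows and in 4.63% of all. The upstream bases of Timp4 had a GC content of 50.8%, near the median of all windows (51.2%), against 61.2% for Timp1, 69.6% for Timp3 and 72.0% for Timp2. A match of letters is a description and does not show that a factor binds.

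The arrays were alike in their central signal, with medians over all genes of 6.14 to 6.37 on the log2 scale. The span between the 10th and 90th percentiles was narrower in both arrays numbered 3 (4.45 and 4.48) than in the others (4.92 to 5.19). Retina was borne out as a part of the sampled tissue by rod photoreceptor markers. Their mean log2 signal over 7 of 8 listed genes ran from 11.005 in HCDDP array 3 to 11.41 in diabetic array 1. Lens markers (4 of 8 measured, 0 lower and 0 higher) were at a like level, 10.99 to 11.52 in the HCDDP arrays and 11.20 to 11.61 in the diabetic arrays. The rod signal therefore does not show that the RNA came from retina alone. Genes of the corneal and scleral stroma (13 of 14 measured, 5 lower and 0 higher) had a mean signal of 9.38 to 9.64 in the HCDDP arrays and 9.91 to 9.99 in the diabetic arrays. Those of the intestinal epithelium (10 of 10 measured, 7 lower and 0 higher) were at 4.43 to 4.54 against 5.18 to 5.77. In these lists no marker was under the 10th percentile of its array throughout.

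Timp1, a secreted inhibitor of most soluble metalloproteinases and a partner of the Mmp9 precursor, was higher in the HCDDP retinas. Its log2 signal was 7.78, 8.31 and 7.74 in HCDDP arrays 1, 2 and 3. In diabetic arrays 1, 2 and 3 it was 6.95, 7.25 and 7.24. All 3 HCDDP arrays lay above all 3 diabetic arrays, with HCDDP array 2 the highest and diabetic array 1 the lowest. The HCDDP mean was 7.94 ± 0.32 (SD, n = 3), against a diabetic mean of 7.15 ± 0.17 (SD, n = 3). The groups differed by 0.80 on the log2 scale, with a standard error of 0.20 and a 95% interval of 0.33 to 1.26, which is 1.74-fold. In the limma fit this met the study's criterion of a fold change over 1.5 at p under 0.05 before adjustment (p = 0.00417, adjusted p = 0.782 over all genes), while the exact permutation p was 0.10, the smallest that 3 arrays against 3 allow. Among 18166 genes Timp1 ranked at 53 by p. The study named Timp1 from these same arrays, so its direction in them is not independent evidence. Apart from the arrays, the study measured Timp1 by quantitative PCR. It reported a lower level in diabetic rats and states that CDDP prevented this reduction. The PCR measurements were not analysed here.

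Of the 9 members measured, 1 passed the paper's threshold and was higher, and 0 were lower. Over all genes tested, 3.20% passed in either direction, 0.925% as higher and 2.28% as lower, so 1 of 9 is a count of a single gene and says nothing of the family. After Benjamini-Hochberg adjustment by limma 0 of the 9 passed, beside 0.0055% of all genes, and 1 had an unadjusted p under 0.05, beside 6.05% of all genes. The groups did not overlap for 2 of the 9 members, Timp1 and Timp4, against 10.7% of all genes (6.43% with HCDDP higher and 4.3% with HCDDP lower). The median log2 difference of the 9 was −0.14, beside −0.01 for all genes, and 6 of the 9 values were below 0. In a sample of whole tissue, fewer cells of a type and less RNA per cell cannot be told apart.

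**Figure D1:**
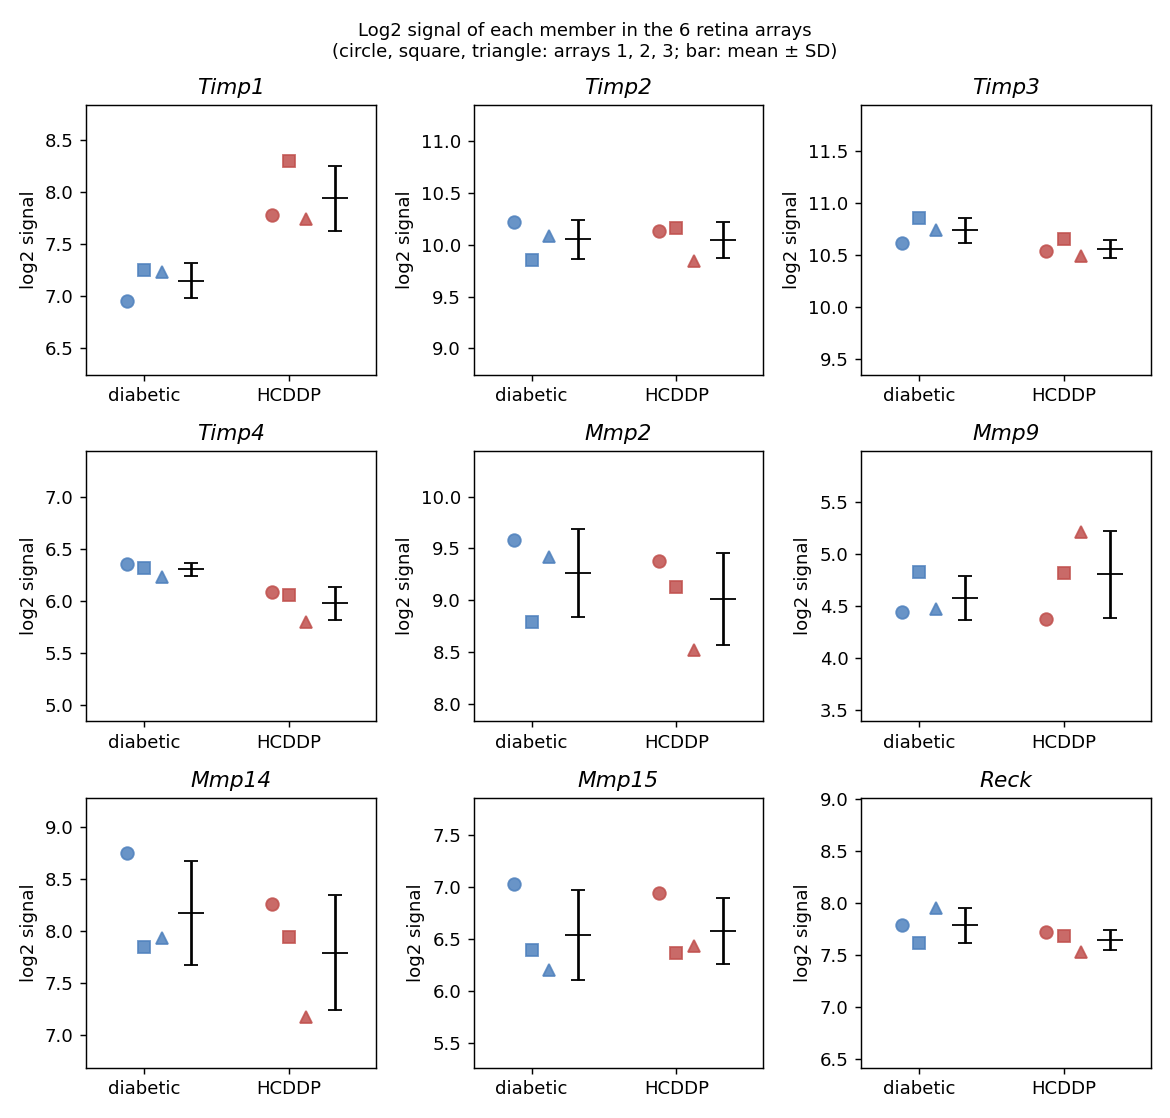
Log2 signal of each measured member (vertical axis, the same span in every panel) in the diabetic and HCDDP arrays, with circles, squares and triangles for arrays 1, 2 and 3 and bars for the mean ± SD (n = 3). The groups are apart for Timp1, where HCDDP lies higher, and for Timp4, where HCDDP lies lower, and they overlap for the other 7 members.

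None of the other TIMPs passed the threshold. Timp4, the TIMP best known from heart and brain, had a log2 signal of 6.09, 6.05 and 5.80 in HCDDP arrays 1, 2 and 3, against 6.36, 6.32 and 6.24 in the diabetic arrays. Every HCDDP array lay below every diabetic array, though the gap between the nearest of them was smaller than for Timp1. The difference of −0.33 on the log2 scale had a standard error of 0.16 and a 95% interval of −0.69 to 0.04 (adjusted p = 0.782 by limma). A fold change of 1.25 was short of the threshold. Before adjustment the p of Timp4 was 0.0755 by limma and 0.0297 by the methods' t-test, where the adjusted p was 0.834.

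Timp3, which binds to the matrix and also inhibits the ADAM and ADAMTS proteases, had overlapping groups. Its signal was 10.54, 10.65 and 10.49 in the HCDDP arrays and 10.61, 10.86 and 10.74 in the diabetic arrays. HCDDP array 2 lay above diabetic array 1, and the other HCDDP arrays lay below all diabetic arrays. A difference of −0.18 on the log2 scale was found, with a 95% interval of −0.54 to 0.18 (adjusted p = 0.825 by limma). It turned to 0.02 after quantile normalization of the arrays.

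Timp2, the inhibitor that helps Mmp14 to activate Mmp2, had nearly equal means in the groups. The HCDDP arrays were at 10.13, 10.16 and 9.85 and the diabetic arrays at 10.22, 9.85 and 10.09. The lowest array of each group was at almost the same level. On the log2 scale the difference was −0.0027, with a 95% interval of −0.41 to 0.40 (adjusted p = 0.998 by limma), and its sign changed with the scaling of the arrays.

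Timp1 was also set against the other TIMPs within arrays, a comparison chosen after the values were seen and given as a description. The log2 ratio of Timp1 to Timp2 was higher in the HCDDP group by 0.80, that to Timp3 by 0.97 and that to Timp4 by 1.12. For Timp4 the ratio was 1.69 to 2.25 in the HCDDP arrays and 0.59 to 1.0 in the diabetic arrays. Timp1 and Timp4 each separated the groups, in opposite directions, so their ratio had to do so as well. The Timp2 ratio repeats the difference of Timp1, since Timp2 had nearly equal means.

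**Figure D2:**
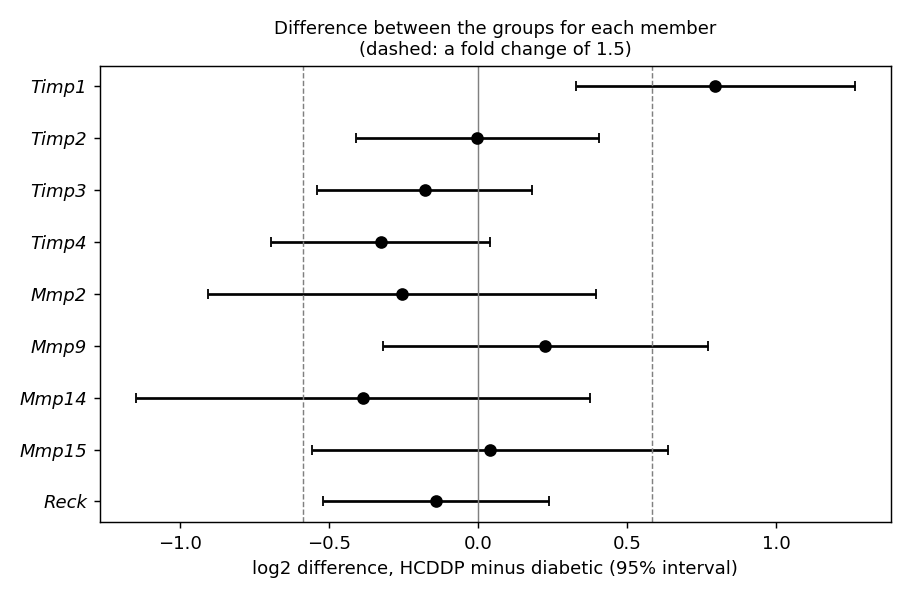
Log2 difference of each member, HCDDP minus diabetic (horizontal axis), with its 95% interval from limma, and dashed lines at a fold change of 1.5, or 0.585 on the log2 scale. The interval of Timp1 lies above 0, while those of Timp2, Timp3 and Reck cross 0 and stay between the dashed lines.

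The gelatinases Mmp2 and Mmp9, which digest denatured collagen and the type IV collagen of basement membranes, did not pass the threshold. Mmp2 was at 9.38, 9.13 and 8.52 in the HCDDP arrays and at 9.59, 8.79 and 9.42 in the diabetic arrays. HCDDP array 3 was the lowest and diabetic array 2 the next, so the groups were interleaved. The log2 difference of Mmp2 was −0.25 with a 95% interval of −0.90 to 0.40 (adjusted p = 0.858 by limma). Without both arrays numbered 3 the value was 0.07, and with 1 array left out it ran from −0.49 (without diabetic array 2) to −0.01 (without HCDDP array 3).

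Mmp9, the gelatinase tied to leakage of the blood-retinal barrier and carried in quantity by neutrophils, gave a weak signal. It was at 4.37, 4.82 and 5.21 in HCDDP arrays 1, 2 and 3 and at 4.44, 4.82 and 4.47 in the diabetic arrays. All 6 values exceeded the 10th percentile of their array, which was 3.42 to 3.84. HCDDP array 3 stood above the rest, and arrays numbered 1 and 2 were nearly the same in both groups. The log2 difference was 0.23 with a 95% interval of −0.32 to 0.77 (adjusted p = 0.851 by limma), and it was 0.02 without HCDDP array 3 and −0.035 without both arrays numbered 3, but 0.44 when HCDDP array 1 was left out and 0.35 when diabetic array 2 was. The 8 neutrophil markers, all measured, had a mean signal of 4.32 to 5.12 in the HCDDP arrays and 4.29 to 4.37 in the diabetic arrays. The highest of these came from S100a8 (7.79) and S100a9 (7.32) in HCDDP array 1, where Mmp9 was at its lowest. None of the 8 passed the threshold, and their part in the Mmp9 signal was not tested.

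Mmp14, the membrane-anchored collagenase that activates the Mmp2 precursor, varied the most between arrays. Its signal was 8.26, 7.94 and 7.17 in the HCDDP arrays and 8.75, 7.84 and 7.93 in the diabetic arrays. Diabetic array 1 was the highest and HCDDP array 3 the lowest, a span of 1.58 log2 units, and the remaining arrays were mixed. The log2 difference of Mmp14 was −0.38 with a 95% interval of −1.15 to 0.38 (adjusted p = 0.819 by limma). It was −0.08 without HCDDP array 3 and −0.10 without diabetic array 1, but −0.62 without HCDDP array 1 and −0.55 without diabetic array 2. Mmp15, another membrane-type metalloproteinase, was at 6.95, 6.36 and 6.43 in the HCDDP arrays and at 7.03, 6.39 and 6.19 in the diabetic arrays. Array 1 was the highest of each group. The log2 difference of Mmp15 was 0.04 with a 95% interval of −0.56 to 0.64 (adjusted p = 0.980 by limma).

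Reck, a glycolipid-anchored protein of the cell surface that restrains Mmp2, Mmp9 and Mmp14, had a narrow spread. The HCDDP arrays were at 7.72, 7.68 and 7.53 and the diabetic arrays at 7.79, 7.61 and 7.95. Diabetic array 2 lay below HCDDP arrays 1 and 2, so the groups overlapped. The log2 difference of Reck was −0.14 with a 95% interval of −0.52 to 0.24 (adjusted p = 0.863 by limma). The intervals of 3 members, Timp2, Timp3 and Reck, excluded a fold change of 1.5 in either direction, whereas those of Timp4, Mmp2, Mmp9, Mmp14 and Mmp15 reached beyond it, so a change of that size was not excluded for them.

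The extremes of several members fell in the same arrays. HCDDP array 3 held the lowest signal of 6 of the 9 members, namely Timp2, Timp3, Timp4, Mmp2, Mmp14 and Reck, and of 23.5% of all genes. Diabetic array 1 held the highest signal of 5, namely Timp2, Timp4, Mmp2, Mmp14 and Mmp15, and of 23.2% of all genes. Diabetic array 1 also had the highest median over all genes, at 6.37, and HCDDP array 3 the lowest 90th percentile, at 8.23. Relative to its mean over the 6 arrays, Mmp14 stood at −0.81 in HCDDP array 3 and 0.77 in diabetic array 1, and Mmp2 stood at −0.62 and 0.45. Timp1 ran the other way in diabetic array 1, where it was at −0.59, the lowest of its values. Markers of pericytes and smooth muscle (7 of 8 measured, 1 lower and 0 higher) were also highest in diabetic array 1, at a mean signal of 8.02, and lowest in HCDDP array 3, at 7.41, and the same held for 6 of the 22 marker and pathway lists, those of rods and of microglia and leukocytes among them. The range of the pericyte and smooth muscle list was 7.41 to 7.85 in the HCDDP arrays and 7.62 to 8.02 in the diabetic arrays. None of its markers was under the 10th percentile throughout. The corneal and scleral stroma list was also lowest in HCDDP array 3, at 9.38, but highest in diabetic array 3, at 9.99. The part of either list in the Mmp2 and Mmp14 signals was not tested.

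Between arrays of the same number, which correlated with each other after the group means were taken away but need not be true pairs, Timp1 was higher in the HCDDP array each time. The log2 differences of Timp1 were 0.83, 1.05 and 0.50 for numbers 1, 2 and 3. Timp4 was lower in each pair, at −0.27, −0.27 and −0.44, and so was Timp3, at −0.08, −0.20 and −0.25. For Timp1 and Timp4 the shared direction adds nothing, because groups that do not overlap give it under any pairing. The pairs did not share a direction for the other 6 members. For number 3 the differences were −0.90 for Mmp2, −0.75 for Mmp14 and 0.75 for Mmp9, against −0.21, −0.50 and −0.07 for number 1.

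**Figure D3:**
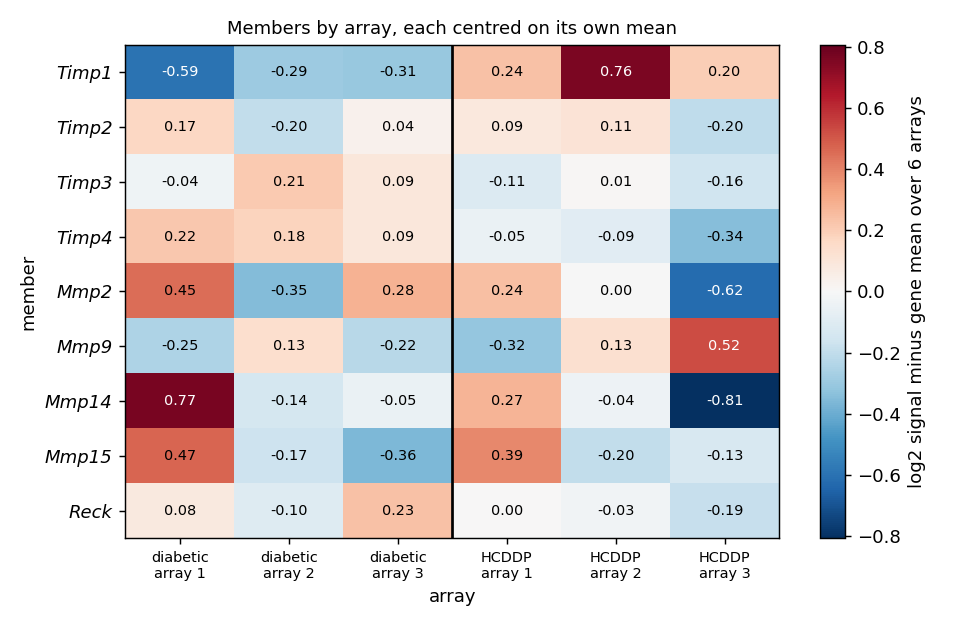
Log2 signal of each member in each array minus the mean of that member over the 6 arrays, with rows for members, columns for arrays and the value printed in each cell. Timp1 is below its mean in every diabetic array and above it in every HCDDP array, and HCDDP array 3 is the lowest column for 6 of the 9 members.

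Timp1 is made by reactive Müller glia and astrocytes, among other cells, so glial markers were set beside it. The 7 measured of 8 reactive glia markers had a mean signal of 7.43 to 7.62 in the HCDDP arrays and 7.55 to 7.87 in the diabetic arrays. Of these markers 0 passed the threshold as higher and 1 as lower, beside 2.28% of all genes as lower. It was Serpina3n, an acute-phase protease inhibitor of reactive astrocytes, with a log2 difference of −0.71. In the same list 3 of the 7 lay above 0, namely Edn2 (0.16), Fgf2 (0.063) and Gfap (0.0067). The 7 measured of 8 Müller glia markers were at 9.03 to 9.21 against 9.16 to 9.57. There 0 passed as higher and 1 as lower, Clu, which encodes clusterin, with −0.96. Of these 7 markers, 2 had a difference above 0. Serpina3n and Clu were named after their values were seen. No marker of either glial list was under the 10th percentile throughout. The median log2 difference was −0.25 for reactive glia and −0.33 for Müller glia, beside −0.41 for cones and −0.31 for bipolar cells. The part of glia in the Timp1 signal was not tested.

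Around the members, 7 lists of other genes of matrix proteolysis held 103 measured of 117 listed genes. At the paper's threshold 0 of the 103 were higher and 4 were lower in the HCDDP group, a share of 3.88% beside 3.20% of all genes. Their median log2 difference was 0.01, and the groups did not overlap for 8 of them, beside 10.7% of all genes. None of the 16 other metalloproteinases of the MMP family passed, with differences of −0.26 to 0.40. The one with the smallest p was the collagenase gene Mmp13, which had a log2 difference of 0.33 (standard error 0.17) and a weak signal, at 4.02 to 4.16 in the HCDDP arrays and 3.53 to 3.94 in the diabetic arrays. None of 10 ADAM genes passed, where the neuronal gene Adam11 had 0.39 (standard error 0.17). None of 14 ADAMTS genes passed, where Adamts18 had −0.37 (standard error 0.17). None of 8 genes of plasminogen activation passed, where Plaur, the urokinase receptor, had 0.28 (standard error 0.23). Plasmin activates several metalloproteinase precursors.

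Of 18 measured activators, partners and other inhibitors, 2 were lower. A2m, a plasma inhibitor that traps proteases of every class, including metalloproteinases, was at 9.63, 9.73 and 9.72 in the HCDDP arrays and at 10.47, 10.63 and 10.50 in the diabetic arrays. The groups were far apart beside their spread, in the direction opposite to that of Timp1. The log2 difference of A2m was −0.84 with a standard error of 0.15 (adjusted p = 0.782 by limma). With 1 array left out the adjusted p by limma was 0.0460 without diabetic array 3 and 0.830 to 0.9997 otherwise. Lcn2, the lipocalin that binds Mmp9 and protects it from breakdown, had a log2 difference of −0.79 (standard error 0.29). HCDDP array 1, at 8.37, lay just above diabetic array 3, at 8.36. The call for Lcn2 was lost without HCDDP array 2 (−0.69) or 3 (−0.77) and without diabetic array 2 (−0.48), and by the methods' t-test. The stroma and intestinal lists were lower in the same arrays as A2m, and their part in it was not tested.

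Of 19 measured substrates in matrix and junctions, 2 were lower. Fn1, the fibronectin gene, differed by −0.64 on the log2 scale (standard error 0.18), with the HCDDP arrays at 8.56 to 8.99 and the diabetic arrays at 9.33 to 9.60. The stroma list was lower in the same arrays, and its part in the Fn1 signal was not tested. The call for Fn1 was lost without HCDDP array 3 (−0.51), diabetic array 1 (−0.58) or both arrays numbered 3 (−0.49), and with array weights (−0.52) or quantile normalization (−0.53). Dag1, which encodes dystroglycan, a matrix receptor cut by Mmp2 and Mmp9, had −0.69 (standard error 0.28), and its call was lost without HCDDP array 2 (−0.67) or 3 (−0.54) and without diabetic array 1 (−0.48) or 2 (−0.62). The Dag1 call was also lost by the methods' t-test, after quantile normalization (−0.58) and over all probe rows. At a fold change over 2 the calls of A2m, Lcn2, Fn1 and Dag1 were all lost. The study's own gene lists hold A2m and Fn1, so their direction is not independent evidence.

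Timp1 transcription is known to respond to AP-1 and to cytokines of the interleukin-6 family. A list of AP-1 and cytokine regulators had 18 measured genes, and none passed the threshold. Besides these routes it holds the other cytokine genes Tgfb1, Tgfb2, Tnf and Il1b. The differences in this list ran from −0.58 to 0.43. The smallest p was that of Tgfb2, a transforming growth factor, with −0.58 (standard error 0.24), just short of the fold change. Tgfb2 passed under 4 of 17 alternatives, namely with array weights (−0.75), with the fold taken from linear signals (−0.62), with diabetic array 3 left out (−0.80) and with both arrays numbered 3 left out (−0.68). It did not pass under the other 13, among them the methods' t-test and the fits without HCDDP array 3 (−0.47) or diabetic array 2 (−0.37).

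**Figure D4:**
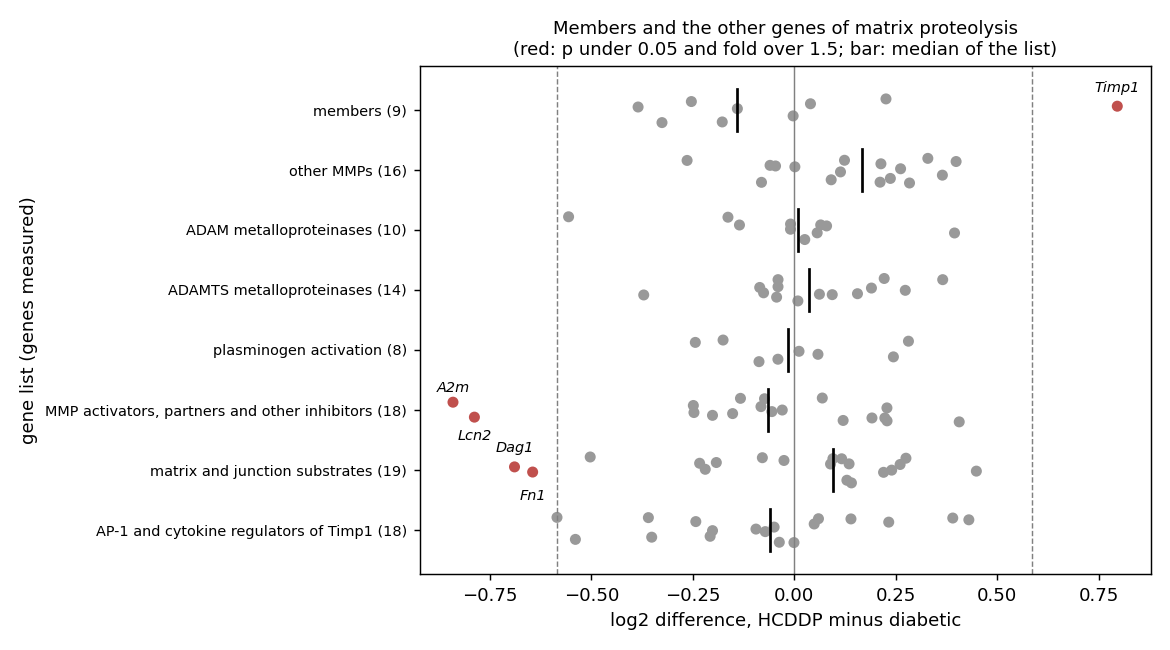
Log2 difference, HCDDP minus diabetic (horizontal axis), of the 9 members and of the genes in 7 lists around them, with 1 point per gene, red where limma's p was under 0.05 and the fold change over 1.5, and a bar at the median of each list. Timp1 is the 1 red point on the higher side, and the 4 on the lower side are A2m, Lcn2, Dag1 and Fn1.

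The genes whose profile over the 6 arrays was nearest to that of Timp1 were Mir126a, Zbtb16 and Or10g9b. Likeness was the root mean square difference of the log2 signals after each gene's mean was taken away, which was 0.07 for Mir126a, 0.09 for Zbtb16 and 0.15 for Or10g9b, beside a standard deviation of 0.49 for Timp1 itself over the 6 arrays. Zbtb16, a zinc finger transcription factor induced by glucocorticoids, was at 7.50, 7.86 and 7.50 in the HCDDP arrays and at 6.79, 7.02 and 6.92 in the diabetic arrays. HCDDP array 2 was the highest and diabetic array 1 the lowest, as for Timp1. Such a shared order follows from choosing genes by their nearness to Timp1 and adds nothing to it. Mir126a, the precursor of an endothelial microRNA that lies in an intron of Egfl7, was weak, at 4.31 to 4.83 in the HCDDP arrays and 3.66 to 3.93 in the diabetic arrays. Egfl7 itself had a log2 difference of 0.62 (standard error 0.17) and was looked up after that value was seen. It was the 1 gene to pass among the 6 measured of 8 endothelial markers, of which 0 were lower at the threshold. Cdh5 and Esam had log2 differences of −0.34 and −0.18, whereas Tek, Cldn5 and Vwf had 0.23, 0.14 and 0.045. With Egfl7, 4 of the 6 lay above 0, and the median of the list was 0.09. Or10g9b, an olfactory receptor gene, lay below the 10th percentile in 3 of the 6 arrays, where order has little meaning. Of all genes, 2 lay nearer to Timp1 than 0.15, and the likeness is given as a description.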

How the data were processed

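The authors scanned Affymetrix Rat Gene 2.0 ST arrays, analysed them with Expression Console Software 1.41 and deposited a table of log2 signals with 36685 probe rows and 1 column per array. For background correction, normalization and summarisation the settings were not given in the sources used. These signals were used as deposited. Rows were named through the platform's gene annotation, with symbols updated by gene identifier for 18394 rows. Rows with exactly 1 symbol (18511) were kept, and of several rows for a gene the one with the highest mean was used (18166 genes). Several symbols were given for 575 rows and none for 17599. No filter on weak signals was applied.

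Groups and replicate numbers came from the sample titles. The groups were compared with limma 3.58.1 in R 4.3.3 (lmFit and eBayes at their defaults), Benjamini-Hochberg adjustment over all genes, and, for single genes, an exact permutation test (two-sided, 20 assignments). The test was tried on simulated data. Arrays give no counts, so their number, 3 in each group, limits the precision. After the group means were taken away, same-numbered arrays had correlations of 0.274, 0.292 and 0.445 over all genes. Such correlations were not computed for arrays of different numbers, so a pairing was not established. The replicate number was run as a block as an alternative. Array pairs correlated at 0.954 to 0.982 and none were identical.

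The members and lists were chosen with earlier results of these data known. Named beside the members were the genes past the threshold in each list, up to 4 by p, or else the 1 with the smallest p, and the 3 profiles nearest to Timp1. Promoter windows came from RefSeq (GRCr8). Alternatives were the methods' t-test, trend and robust settings, array weights (statmod 1.5.0), median centring, quantile normalization, all probe rows, genes above the median signal, the block, linear folds, a fold over 2 and each array left out. Leaving out both arrays numbered 3 was added after the data were seen. Python 3.11.15 with matplotlib 3.10.9 and pandas 2.3.3 drew the figures.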

Additional observations from a re-analysis of the deposited data

How the results depend on the processing

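Timp1 stayed higher in the HCDDP group and past the paper's threshold under 16 of 17 alternatives, with a log2 difference of 0.61 (without HCDDP array 2) to 0.94 (without both arrays numbered 3). The exception was a fold change over 2, under which 0 of the 9 members passed in place of 1. The adjusted p of Timp1 by limma or the methods' t-test ran from 0.0939 to 0.9997, and 0 members passed an adjusted p under any alternative. With the replicate number as a block Timp1 had an adjusted p of 0.293 by limma and no other member's call changed. The count of members whose groups did not overlap was 2 after quantile normalization and 2 after median centring. Members near 0 changed sign. Timp2 was at 0.14 with array weights, 0.16 after quantile normalization, 0.030 after median centring, 0.115 without both arrays numbered 3, and −0.10 to 0.10 with each array left out. Mmp15 was at −0.0014 with array weights, −0.058 without both arrays numbered 3 and −0.14 to 0.29 with each array left out. Timp3 was at 0.018 after quantile normalization, Mmp2 at 0.044 with array weights and 0.069 without both arrays numbered 3, and Mmp9 at −0.035 without them. The cause was not tested. The 582 genes past the threshold became 196 by the methods' t-test, 1362 with array weights, 381 among genes above the median signal, 1898 over all probe rows, 90 at a fold over 2, 1482 without both arrays numbered 3, and 323 (without HCDDP array 3) to 1984 (without diabetic array 3) with each array left out. No member had a further row of its own, so another row per gene could not be tried.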
